A study of Mus musculus with 12 samples.

Results

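The Ifi27 cluster of the mouse is a group of 3 neighbouring genes on chromosome 12: Ifi27, Ifi27l2a and Ifi27l2b. They were taken by symbol from the 24062 genes of the count tables, so the cluster is 3 of 24062 genes. They were chosen by their symbols and selected on their genotype differences in these libraries, as genes whose response appeared confined to liver. Those genotype differences are therefore given below as a description, without a test. In the deposited counts Ifi27 changed by 1.91 in liver and 0.11 in gastrocnemius on the log2 scale, which restates that selection. A response confined to liver did not hold for Ifi27l2a, which changed by 0.72 in gastrocnemius. For Ifi27l2b gastrocnemius gave too few counts to say.

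The libraries came from liver and from gastrocnemius, a calf muscle, of 6 female C57BL/6N mice on chow. In 3 animals, numbered 5, 7 and 12, both copies of Mars2 carried R135W, and the 3 animals numbered 6, 8 and 9 were wild type (WT). Mars2 encodes the synthetase that loads methionine onto its tRNA in mitochondria. The R135W animals were 9.0, 7.4 and 8.6 weeks old and the WT animals 9.0, 9.0 and 7.4 weeks old. Libraries of the 2 tissues with the same number in their title share genotype and age and were taken to come from 1 animal, which the labels do not state. There was 1 poly(A) library per number and tissue, so there are 4 groups of 3 libraries: liver R135W, liver WT, gastrocnemius R135W and gastrocnemius WT. Nothing in the labels says whether the animals were littermates.

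Interferons are secreted signals of antiviral defence. Type I interferons bind a receptor on the cell surface, and transcription factors, IRF9 among them, then switch on the interferon-stimulated genes. The Ifi27 family, also called ISG12, is among these genes. Its products are very hydrophobic proteins, and family members have been reported in mitochondria and at the nuclear envelope. In mice Ifi27l2a has been linked to control of West Nile virus in the brain, and human IFI27 to restraint of the RNA sensor RIG-I.

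In the annotation the authors counted on (mm10), Ifi27 lies on the plus strand at chr12:103434189-103440245 and has 7 exons with 1053 bases. Ifi27l2a lies on the minus strand at chr12:103433873-103443680 with 5 exons and 883 bases, and Ifi27l2b on the minus strand at chr12:103450898-103457223 with 7 exons and 1093 bases. Each gene holds a coding exon of 162 bases, and Ifi27l2b holds a pair of them. A coding exon of 30 bases lies next to each of these copies. The 162-base exons are printed because they show how alike the genes are in the stretch they have in common, which bears on whether reads can be told apart. They are from GENCODE M21 transcripts (GRCm38, the assembly of mm10), 5′ to 3′ on the strand of the gene, and capitals mark the 110 of 162 positions at which all 4 copies carry the same base.
Ifi27, chr12:103439401-103439562, plus strand: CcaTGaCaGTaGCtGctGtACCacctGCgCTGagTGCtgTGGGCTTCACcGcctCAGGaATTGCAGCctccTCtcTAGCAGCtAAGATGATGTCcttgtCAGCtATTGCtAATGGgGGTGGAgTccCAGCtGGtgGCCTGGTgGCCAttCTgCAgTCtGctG
Ifi27l2a, chr12:103442832-103442993, minus strand: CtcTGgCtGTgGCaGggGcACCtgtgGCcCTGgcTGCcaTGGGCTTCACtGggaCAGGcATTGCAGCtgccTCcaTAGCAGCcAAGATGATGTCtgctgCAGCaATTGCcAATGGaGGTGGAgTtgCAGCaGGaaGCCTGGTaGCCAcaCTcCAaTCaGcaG
Ifi27l2b first copy, chr12:103456358-103456519, minus strand: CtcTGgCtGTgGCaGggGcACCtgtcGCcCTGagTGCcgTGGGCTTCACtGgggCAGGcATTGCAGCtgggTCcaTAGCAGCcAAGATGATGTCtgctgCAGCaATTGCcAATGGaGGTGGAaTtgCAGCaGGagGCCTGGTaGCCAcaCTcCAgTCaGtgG
Ifi27l2b second copy, chr12:103451806-103451967, minus strand: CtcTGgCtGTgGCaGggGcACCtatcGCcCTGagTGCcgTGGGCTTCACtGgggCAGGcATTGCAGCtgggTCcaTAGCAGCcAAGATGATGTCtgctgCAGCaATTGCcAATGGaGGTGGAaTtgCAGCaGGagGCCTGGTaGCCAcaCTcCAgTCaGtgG
The copies within Ifi27l2b were identical at 161 of 162 positions (99.4%). Ifi27l2a was identical to the first of them at 92.6% and to the second at 92.0% of positions, whereas Ifi27 was identical to Ifi27l2a at 70.4% and to each Ifi27l2b copy at 71.0%. In GENCODE M21 the longest run that any transcript of Ifi27 shared with Ifi27l2a or Ifi27l2b was 11 bases, and Ifi27l2a and Ifi27l2b shared at most 51. Reads were 100 bases long, so no pair of these GENCODE transcripts shared a run as long as a read.

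A second kind of sharing does affect the counts. The annotated Ifi27l2a has a 419-base exon at chr12:103433873-103434291, far from its other 4 exons and beyond the 5′ end of Ifi27. The last 103 bases of that interval, chr12:103434189-103434291, are also the start of the first exon of Ifi27 on the other strand. The overlap is 9.78% of the exon length of Ifi27 and 11.7% of that of Ifi27l2a. Fragments were counted without regard to strand and once for every gene they overlapped, so a fragment of Ifi27 RNA that reached those bases was also counted for Ifi27l2a, and the reverse. In GENCODE M21, the single transcript of Ifi27l2a has 463 bases, starts and ends between 103442167 and 103443680, and shares 0 bases with any exon of Ifi27. Exons of Ifi27l2b overlapped those of neither other member.

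**Figure D1:**
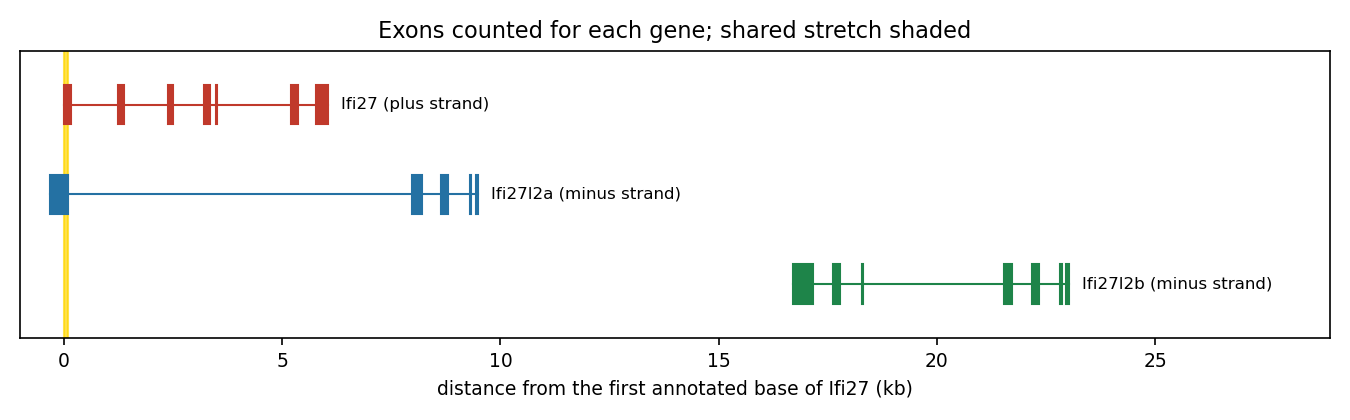
Exons counted for the 3 genes (boxes), with introns as lines; the x axis is the distance in kb from the first annotated base of Ifi27. The shaded stretch marks the 103 bases that Ifi27 shares with the distant exon of Ifi27l2a on the opposite strand, while Ifi27l2b lies apart from both.

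Total counts ran from 20751583 to 30460237 per library. Levels are CPM, counts scaled to the TMM-adjusted library size, and error is the SD over 3 animals. Libraries of a group differed by more than counting error, with a chi-squared per degree of freedom of 41.7 to 118 in liver and 8.07 to 17.8 in gastrocnemius. Mars2 RNA was at 2.88 ± 0.659 CPM in R135W livers and 2.71 ± 0.611 CPM in WT livers, and at 9.67 ± 0.895 CPM in R135W gastrocnemius and 11.9 ± 0.972 CPM in WT gastrocnemius (n = 3 each), with an adjusted p of 0.90 in liver and 0.295 in muscle by edgeR's quasi-likelihood test. The tissue labels held: 10 skeletal muscle markers summed to at most 2.68 CPM in any liver, and 10 hepatocyte markers to 10.6 to 55.0 CPM in gastrocnemius, against at least 83026 CPM in liver.

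Ifi27 was the most abundant of the 3 genes and rested on the most counts. In liver it had 9187, 7315 and 11134 counts in R135W animals 5, 7 and 12, against 2070, 1772 and 2220 counts in WT animals 6, 8 and 9. Scaled to library size, these were 342, 345 and 337 CPM in the R135W livers, against 96.4, 86.8 and 87.8 CPM in the WT livers. All 3 R135W livers lay far above all 3 WT livers, and within each genotype the animals were close together. The group means were 341 ± 3.99 CPM in R135W and 90.4 ± 5.30 CPM in WT (SD, n = 3 each), a log2 fold change of 1.91 (SE 0.12), or 3.76-fold. Of the 13935 genes tested in liver, Ifi27 had the fold change of rank 68.

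In gastrocnemius Ifi27 counts were near those of each other in all animals. They were 495, 540 and 543 in the R135W muscles of animals 5, 7 and 12, and 458, 513 and 513 in the WT muscles of animals 6, 8 and 9. The levels were 20.7 ± 0.249 CPM in R135W and 19.1 ± 0.585 CPM in WT, a log2 fold change of 0.11 (SE 0.07), or 1.08-fold. The R135W range of 20.4 to 20.9 CPM and the WT range of 18.5 to 19.7 CPM did not overlap, yet the step between them was small. The liver change exceeded the muscle change by 1.80 (SE 0.11) on the log2 scale.

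Ifi27l2a, the member linked to antiviral control in mouse brain, was lower in level than Ifi27 but had the same direction in liver. It had 1177, 953 and 1527 counts in R135W livers 5, 7 and 12, against 302, 298 and 323 counts in WT livers 6, 8 and 9. The R135W livers again stood entirely above the WT livers. The means were 45.0 ± 1.22 CPM in R135W and 13.8 ± 0.937 CPM in WT, a log2 fold change of 1.70 (SE 0.11), or 3.24-fold.

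Ifi27l2a was also higher in R135W muscle, by a larger step than Ifi27. It had 307, 359 and 300 counts in R135W gastrocnemius of animals 5, 7 and 12, against 176, 225 and 196 counts in WT gastrocnemius of animals 6, 8 and 9. The levels ran from 11.5 to 13.6 CPM in R135W and from 7.31 to 8.12 CPM in WT, without overlap. The means were 12.7 ± 1.08 CPM in R135W and 7.65 ± 0.421 CPM in WT, a log2 fold change of 0.72 (SE 0.10), or 1.64-fold, at rank 189 of 13826 genes. The liver change exceeded the muscle change by 0.98 (SE 0.14) on the log2 scale. Leaving out 1 library at a time kept the muscle value between 0.66 and 0.79.

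Of the 2 tissues sequenced, Ifi27l2b, the member with the duplicated exons, was found almost only in liver. It had 874, 527 and 1117 counts in R135W livers 5, 7 and 12, against 208, 180 and 184 counts in WT livers 6, 8 and 9. The lowest R135W liver, that of animal 7, was still well above the highest WT liver. The means were 30.4 ± 4.84 CPM in R135W and 8.60 ± 1.22 CPM in WT, a log2 fold change of 1.82 (SE 0.16), or 3.52-fold. Gastrocnemius held 1, 2 and 3 counts in R135W animals 5, 7 and 12, against 0, 2 and 2 counts in WT animals 6, 8 and 9. A difference between genotypes in muscle was not detectable at this depth, and Ifi27l2b did not pass the filter on low counts there. Its difference between the tissues' responses, 1.25 (SE 0.94), rests on those few counts and moved between 0.88 and 1.75 when 1 library was left out.

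**Figure D2:**
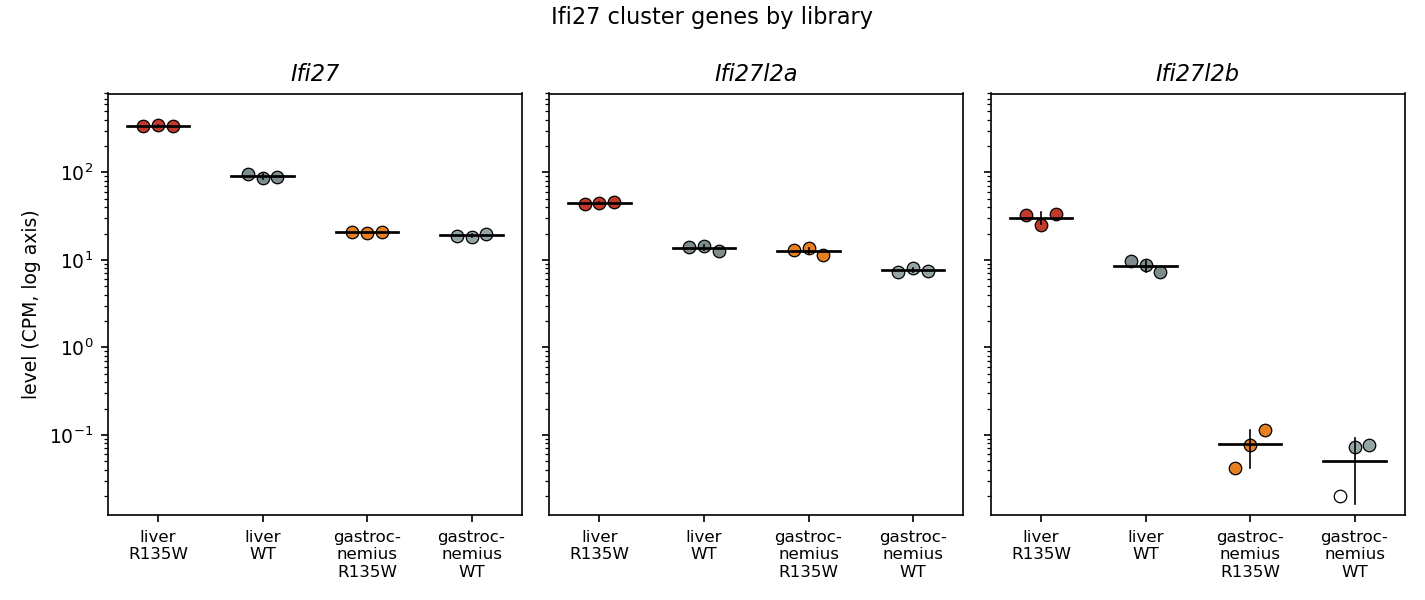
Level in CPM on a log axis of Ifi27, Ifi27l2a and Ifi27l2b in each of the 12 libraries (points), with the group mean (bar) and SD (line, n = 3); an open point is a library with 0 counts, drawn near the foot of the axis. All genes are higher in R135W than in WT liver, Ifi27l2a alone is visibly higher in R135W muscle, and Ifi27l2b holds at most 3 counts in any muscle library.

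All 3 members passed the filter in liver, 2 passed it in gastrocnemius, and all 3 passed it in the fit of the 12 libraries. In liver the R135W animals were fully above the WT animals for 3 of 3 members, an arrangement found in 14.1% of all tested genes. In gastrocnemius this was so for 2 of the 2 members tested, against 9.1% of genes. The genotype differences in both tissues entered the choice of the members, so neither count is a test. Only the liver count restates that choice. The median log2 fold change over all genes tested was -0.01 in liver and 0.00 in gastrocnemius. With RLE size factors, DESeq2, no filter on low counts or age as a covariate, the liver values moved by less than the spread between replicates.

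Levels of different genes were compared per length of annotated exon. In R135W livers, Ifi27 stood at 324 CPM per kb, Ifi27l2a at 50.9 and Ifi27l2b at 27.8 CPM per kb. In WT livers the order was the same, at 85.8, 15.6 and 7.86 CPM per kb. In R135W gastrocnemius Ifi27 at 19.7 and Ifi27l2a at 14.4 CPM per kb were nearer each other, with Ifi27l2b at 0.0710. In WT gastrocnemius the values were 18.1, 8.66 and 0.0454 CPM per kb. Ifi27l2a was divided by 883 bases, 419 of them in the distant exon, while its GENCODE M21 transcript has 463 bases. Over that shorter length its levels per kb would be higher, so its order against Ifi27 in R135W muscle depends on the annotation. Over the 4 groups, each gene ran from R135W liver through WT liver and R135W gastrocnemius down to WT gastrocnemius. For Ifi27l2a the middle of this order was not resolved, since 12.8 to 14.6 CPM in WT livers overlapped 11.5 to 13.6 CPM in R135W muscle. For Ifi27l2b the muscle groups overlapped.

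The tissue difference in WT animals played no part in the choice of the members and was tested for Ifi27 and Ifi27l2a. Ifi27 was higher in WT liver than in WT gastrocnemius, at 90.4 ± 5.30 CPM against 19.1 ± 0.585 CPM (SD, n = 3 each). The log2 fold change was 2.24 (SE 0.08), 4.74-fold, with an adjusted p of 1.4e-11 by edgeR's quasi-likelihood test over 15414 genes. Ifi27l2a averaged 13.8 ± 0.937 CPM in WT liver and 7.65 ± 0.421 CPM in WT gastrocnemius, 1.80-fold higher in liver (log2 0.85, SE 0.10, adjusted p = 2.53e-06 by edgeR). This call changed when counts that may be shared with Ifi27 were removed: less 9.78% of the Ifi27 counts, a share explained with the overlap, the value was -0.22 (edgeR adjusted p = 0.224), and less 12.8% it was -1.22 (adjusted p = 0.0861). Ifi27l2b had 572 counts over the WT livers and 4 over the WT muscles. Scaled to library size this is a ratio of 166, with a 95% interval of 64.4 to 611 that covers counting error only. It passed the filter on low counts through its liver counts alone, so this ratio is given as a description, without a test. In R135W animals the same ratio was 394, with 2518 counts against 6 and an interval of 181 to 1076. Liver and muscle differ in most of their genes: 82.1% of genes were called in this comparison and 40.9% were higher in liver, among them Ifi27 and Ifi27l2a. The p-values in all comparisons measure the spread between libraries of a group, each from a different animal. Here the 12 libraries of both tissues shared 1 estimate of spread, and the pairing by animal was left out. With the animal as a block the edgeR adjusted p was 2.99e-09 for Ifi27 and 3.44e-05 for Ifi27l2a. With WT libraries alone it was 1.66e-08 and 8.70e-05. Leaving out any 1 WT library kept the calls of Ifi27 and Ifi27l2a.

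The shared exon stretch bears on how the Ifi27l2a values can be read. In liver, Ifi27l2a counts were 12.8%, 13.03% and 13.7% of the Ifi27 counts in R135W animals 5, 7 and 12, and 14.6%, 16.8% and 14.5% in WT animals 6, 8 and 9. The share was slightly lower in every R135W liver than in any WT liver. In gastrocnemius it was 62.0%, 66.5% and 55.2% in R135W animals, and 38.4%, 43.9% and 38.2% in WT animals, so muscle held far more Ifi27l2a counts for each Ifi27 count. The liver shares are not far above the 9.78% of the Ifi27 exon length that overlaps Ifi27l2a. Ifi27l2b counts, which share no exon, were 9.51%, 7.20% and 10.03% of the Ifi27 counts in R135W livers and 10.05%, 10.2% and 8.29% in WT livers.

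**Figure D3:**
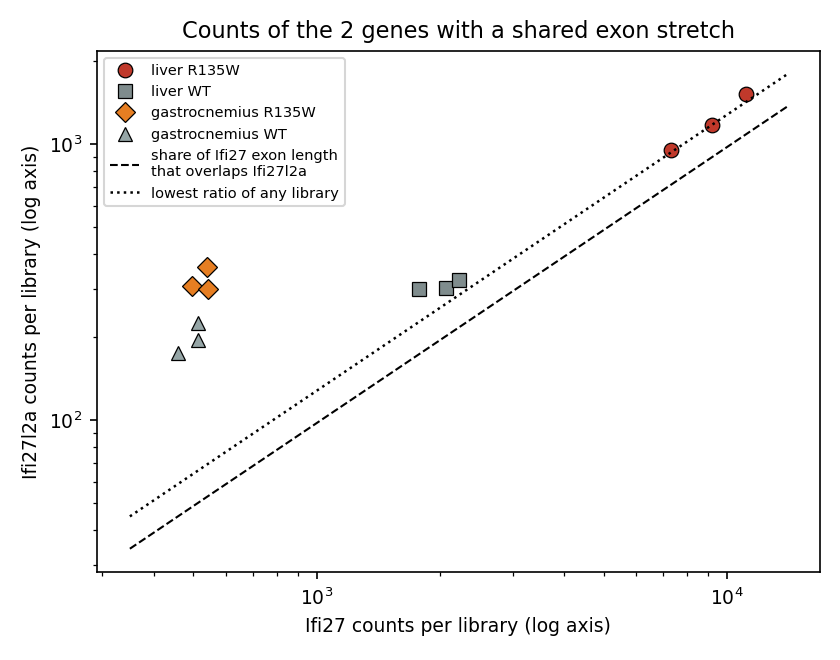
Ifi27l2a counts against Ifi27 counts in each of the 12 libraries, on log axes. The 6 liver libraries lie just above the dashed line at 9.78% of the Ifi27 counts and near the dotted line at 12.8%, the lowest ratio of any library, while the 6 gastrocnemius libraries lie well above both.

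To see what the overlap could do, a fixed share of the Ifi27 counts was taken from the Ifi27l2a counts of every library, a choice made after the data were seen. With 4.89% removed, the liver log2 fold change of Ifi27l2a was 1.59 (SE 0.12), and with 9.78% removed, the length share, it was 1.21 (SE 0.18). At the length share 278, 237 and 438 counts remained in the R135W livers, against 100, 125 and 106 in the WT livers, and the groups were still apart. With 12.8% removed, the most that leaves no library below 0, it was -0.76 (SE 0.89), resting on 0, 16 and 101 counts in R135W livers and 37, 71 and 39 counts in WT livers. The muscle change moved little, at 0.78, 0.87 and 0.93 for the same shares. For WT liver against WT muscle, the log2 fold change was 0.48 with 4.89% removed, still called higher (edgeR adjusted p = 0.00159). It was no longer called, and its sign was turned, with the larger shares, as given above. The share that fragments of Ifi27 really contributed is unknown, and the liver response of Ifi27l2a cannot be told apart from that of Ifi27 in these counts. In muscle the value of Ifi27 itself also depended on how the counts were handled. Its log2 fold change there was 0.31 when both genes' counts were summed and -0.52 when every Ifi27l2a count was taken from Ifi27. Taking every count is an extreme, since the overlap is 11.7% of the Ifi27l2a exon length. Subtracting only that share from Ifi27 was not tried.

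**Figure D4:**
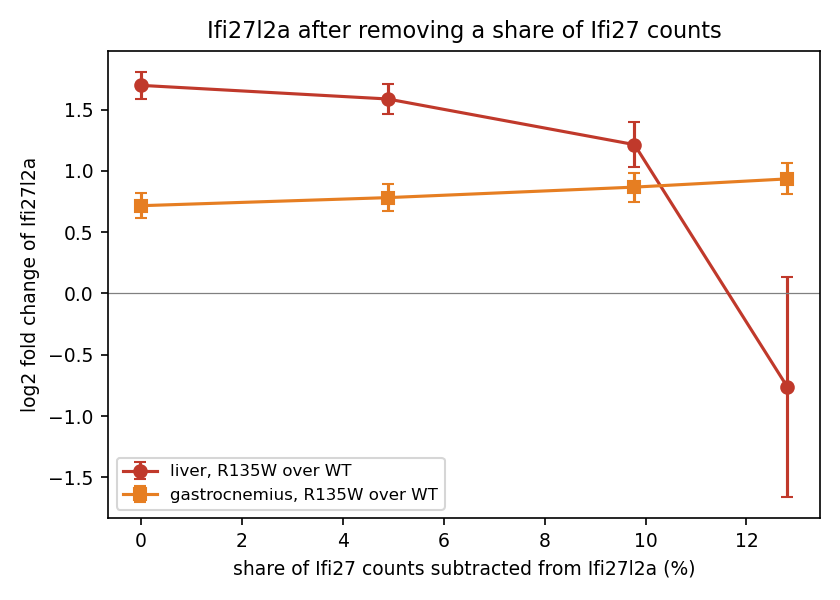
Log2 fold change of Ifi27l2a (R135W over WT, points, with SE bars) in liver and in gastrocnemius, against the share of Ifi27 counts subtracted from Ifi27l2a in every library, in percent. The liver value runs 1.70, 1.59, 1.21 and -0.76 as the share grows to 12.8%, while the muscle value stays between 0.72 and 0.93.

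The members differed in how much the animals of a group varied. In R135W livers the coefficient of variation of Ifi27 was 1.17%, below that of each of the 49 other interferon-stimulated genes measured, whose values ran from 5.79% to 59.8% with a median of 21.6%. Among all 13935 tested genes 1.07% had a lower value. Ifi27l2a followed at 2.71%, while Ifi27l2b at 15.9% had 14 of the 49 genes below it. In WT livers Ifi27 varied by 5.87%, with 4 of the 49 below it. The summed level of the 49 genes was 2824, 3962 and 4067 CPM in R135W livers 5, 7 and 12, and 1266, 1511 and 1410 CPM in WT livers 6, 8 and 9. Animal 5 was thus the lowest R135W animal for the other genes. The Ifi27 levels, 337 to 345 CPM, lay so close together that the order of the animals is not read. The Ifi27l2a levels, 43.8 to 46.2 CPM, were also close, and their order is not read either. Ifi27l2b was lowest in animal 7, at 24.8 CPM. The 49 genes were not matched to Ifi27 on counts, and a gene with fewer counts carries more counting error. With 3 animals a group these values of spread are a description.

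The interferon system around the family was read from lists of its parts, beginning with the ligands. Of 21 interferon genes in the files, none passed the filter in any comparison, and 18 had 0 counts in R135W livers, as did 18 in WT livers. Interferon beta (Ifnb1) had 2 counts over the R135W livers and 1 over the WT livers, and interferon gamma (Ifng) had 8 and 2. Interferon kappa (Ifnk) had 8 counts over the R135W livers and 15 over the WT livers. In gastrocnemius the list reached 3 counts for any gene in a group. A difference in ligand RNA was not detectable at this depth.

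Of 5 tested receptor genes, 0 were called in liver by edgeR, 2 had an unadjusted p under 0.05 (17.6% of all genes did), and DESeq2 called 0. In gastrocnemius edgeR and DESeq2 again called 0, with 1 unadjusted (11.5% of all genes). Ifngr2, a chain of the interferon gamma receptor, had a liver log2 fold change of 0.42 (SE 0.11, edgeR adjusted p = 0.0808), and was called in the fit of all 12 libraries (adjusted p = 0.00676). Of 5 signal transducers 1 was called in liver, where 3.28% of genes were called, and it was higher in R135W. Irf9, the DNA-binding part of the interferon response complex, averaged 56.9 ± 5.08 CPM in R135W livers and 38.7 ± 2.11 CPM in WT livers (log2 0.55, SE 0.11, edgeR adjusted p = 0.0351). It was not called after any 1 liver library was left out, nor with age as a covariate (adjusted p = 0.0806). In gastrocnemius 1 of 5 was called, against 0.875% of genes: Stat2, at 0.70 (SE 0.13, edgeR adjusted p = 0.0430), which was called in 1 of the 6 fits that left out a library, the fit without R135W animal 5, and not in the fit of all 12 libraries (adjusted p = 0.103). DESeq2 also called Irf9 in gastrocnemius, with an adjusted p of 0.0256.

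Of 7 feedback inhibitors, 1 rose and 1 fell in liver, where 0.524% of all genes were called lower. Usp18, a protease that strips ISG15 from proteins and dampens signalling at the type I receptor, averaged 54.04 ± 17.96 CPM in R135W livers and 13.5 ± 3.99 CPM in WT livers. Its log2 fold change was 1.99 (SE 0.28, edgeR adjusted p = 0.0112), and it was not called without WT animal 8. Irf2, a repressor that competes with activating interferon regulatory factors, averaged 41.5 ± 3.62 CPM in R135W livers and 65.8 ± 9.22 CPM in WT livers. Its log2 fold change was -0.67 (SE 0.13, edgeR adjusted p = 0.0323), a call kept in the fit without WT animal 6 and in none of the other 5. With age as a covariate its adjusted p was 0.0622. In gastrocnemius edgeR called 0 of 6 inhibitors, with 1 unadjusted (11.5% of all genes), and DESeq2 called 0. With age as a covariate Usp18 was called there (log2 0.86, edgeR adjusted p = 0.0406).

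The other interferon-stimulated genes moved with the family in liver. This list, like the others, was chosen with earlier results of these data known, so its counts of called genes are a description. By edgeR 35 of 49 were higher in R135W livers and 0 lower, against 2.76% of all genes called higher, and their median log2 fold change was 1.23. Irf7, the factor that amplifies type I interferon production, averaged 282 ± 65.2 CPM in R135W livers and 49.2 ± 3.65 CPM in WT livers (log2 2.51, SE 0.19, edgeR adjusted p = 0.00186). Oas1a, an oligoadenylate synthetase that senses double-stranded RNA, rose by 3.23 (SE 0.26), and its relative Oasl1, which restrains Irf7 translation in mice, by 2.28 (SE 0.19), both with an edgeR adjusted p of 0.00242. Oas1a has near copies in the genome, so its counts may be shared with them. The liver count was 15 without WT animal 9, and 24 to 39 when any other single library was left out. Ifi27 at 1.91 lay within this group in liver, with 15 of the 49 genes above it.

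In gastrocnemius 19 of 47 of these genes were called higher and 0 lower, against 0.542% of all genes called higher and 0.333% called lower, with a median of 0.82. Irf7 rose there too, at 22.7 ± 7.09 CPM in R135W and 3.80 ± 1.09 CPM in WT gastrocnemius (log2 2.56, SE 0.26, edgeR adjusted p = 0.00918; not called without WT animal 8). The muscle count was 27 without R135W animal 5. It was 5 without R135W animal 12, 3 without WT animal 9, 2 without WT animal 6, 1 without R135W animal 7 and 0 without WT animal 8, and a fit of all 12 libraries called 4. The muscle value of Ifi27, 0.11, was below that of 46 of the 47 genes. For Ifi27l2a, at 0.72, 29 of the 47 lay higher and 18 lower. In the difference between tissues, where 0.13% of all genes were called, these genes had a median of 0.45 and a range of -0.37 to 2.49. Of the 49, 1 had a larger value than the 1.80 of Ifi27: Mx1, named here after its value was seen. The members were picked for a response that appeared confined to liver. The ranks of Ifi27 in muscle and in the difference between tissues therefore restate that choice.

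**Figure D5:**
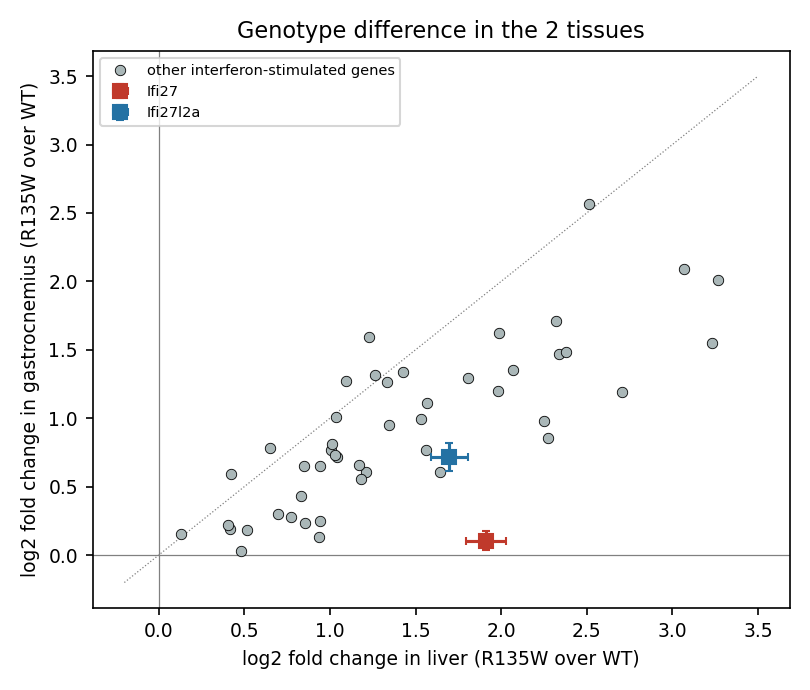
Log2 fold change (R135W over WT) in gastrocnemius against that in liver for Ifi27 and Ifi27l2a (squares, with SE bars) and for the 47 other interferon-stimulated genes tested in both tissues (circles); the dotted line marks equal change. Ifi27, at 1.91 in liver and 0.11 in muscle, lies near the bottom of the plot, and Ifi27l2a, at 1.70 and 0.72, lies among the other genes. Ifi27 was picked for a response that appeared confined to liver, so its place restates that choice.

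Proteins reported to bind ISG12 family members were looked at as well. Ddx58, which encodes RIG-I and also stands in the list of other interferon-stimulated genes, was the 1 of 5 tested partners called in liver, against 3.28% of all genes. It averaged 48.9 ± 8.31 CPM in R135W livers and 27.1 ± 4.09 CPM in WT livers (log2 0.85, SE 0.16, edgeR adjusted p = 0.0287), and among the fits without 1 library it was called only in that without R135W animal 5. With age as a covariate its edgeR adjusted p was 0.0581. Nr4a1, a nuclear receptor bound by a mouse ISG12 protein, had a value of 1.32 (SE 0.62, edgeR adjusted p = 0.318) in liver. Skp2, a ubiquitin ligase subunit reported as a partner of the human protein, had 0.28. In gastrocnemius edgeR called 0 of 6 partners, with 2 unadjusted (11.5% of all genes), and DESeq2 called 1.

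Markers of macrophages and monocytes also moved with the family in liver. These lists too were chosen with earlier results of these data known. Of 15 macrophage markers 11 rose and 0 fell, against 2.76% of all genes called higher and 0.524% lower, with a median of 1.02. Their summed level was 1078 to 1125 CPM in R135W livers and 406 to 649 CPM in WT livers, with none of the 15 at 0 in either group. Cd5l, a protein secreted by tissue macrophages, rose by 1.48 (SE 0.18, edgeR adjusted p = 0.00831). Clec4f, which marks Kupffer cells, the resident macrophages of liver, rose by 0.89 (SE 0.20, edgeR adjusted p = 0.0495), a call lost when any 1 liver library was left out, with RLE size factors (adjusted p = 0.0514) and with age as a covariate (adjusted p = 0.0636). The count of macrophage markers was 4 without R135W animal 7, 7 without R135W animal 5, WT animal 8 or WT animal 9, and 8 or 9 without either remaining library. Of 8 monocyte markers tested 5 rose, against the same 2.76% of all genes. All 9 monocyte markers in the files had a summed level of 32.8 to 37.7 CPM in R135W livers and 15.5 to 16.7 CPM in WT livers. That count was 4 without R135W animal 5, 3 without R135W animal 12, 2 without R135W animal 7, WT animal 6 or WT animal 8, and 1 without WT animal 9. The part of these cells in the rise of the Ifi27 genes was not tested, and in bulk tissue more cells of a type and more RNA per cell cannot be told apart.

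In gastrocnemius no macrophage or monocyte marker was called beside the higher Ifi27l2a. Of 10 macrophage and 4 monocyte markers tested, edgeR and DESeq2 called 0, with 0 unadjusted (11.5% of all genes), and the summed macrophage level was 72.0 to 93.0 CPM in R135W and 68.6 to 85.9 CPM in WT. Of 10 hepatocyte markers in liver edgeR called 0, with 2 unadjusted (17.6% of all genes), and their median was -0.22. DESeq2 called 2 of them, where it called 774 genes in all. Their summed level was 83026 to 91347 CPM in R135W livers and 103386 to 105978 CPM in WT livers, without overlap. Of 10 endothelial markers in liver edgeR and DESeq2 called 0, with 2 unadjusted (17.6% of all genes). For 9 lymphocyte markers in liver both tools called 0, with 5 unadjusted (17.6% of all genes), and the summed level of all 10 markers in the files was 11.9 to 14.9 CPM in R135W and 6.96 to 9.78 CPM in WT. In gastrocnemius edgeR called 1 of 9 endothelial markers, against 0.875% of all genes, and 0 without WT animal 8. There 6 of the 9 had an unadjusted p under 0.05 (11.5% of all genes). DESeq2 called 2 of them, where it called 267 genes in all. Of 10 skeletal muscle markers in gastrocnemius edgeR and DESeq2 called 0, with 1 unadjusted (11.5% of all genes).

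Genes that lie beside the cluster were also compared between genotypes. Of the 3 nearest tested genes on each side, 1 of 6 was called in liver, against 3.28% of all genes. That gene was Asb2, a ubiquitin ligase adaptor abundant in muscle, 77872 bases before the cluster, at 4.96 ± 1.26 CPM in R135W livers and 1.55 ± 0.425 CPM in WT livers (log2 1.65, SE 0.28, edgeR adjusted p = 0.0197). It was not called without R135W animal 7, WT animal 8 or WT animal 9. The nearest neighbours on the same side, the RNA helicase gene Ddx24 at 8006 bases and the deubiquitinase gene Otub2 at 27523 bases, had 0.34 (adjusted p = 0.171) and 0.19 (adjusted p = 0.671) by edgeR. On the other side, Ppp4r4, Serpina10 and Serpina6 had -0.21, -0.10 and 0.03, with edgeR adjusted p-values of 0.561, 0.734 and 0.956.

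The genes whose pattern over the 12 libraries was nearest to each member were found by the root mean square difference between centred log2(CPM + 1) profiles, over 15411 genes. Nearest to Ifi27 were Emr1, the macrophage surface protein F4/80, at 0.28, then Hk3, a hexokinase of myeloid cells, at 0.30, and Cxcl10, an interferon-induced chemokine, at 0.31. Emr1 averaged 29.3 ± 3.90 CPM in R135W livers and 10.1 ± 1.92 CPM in WT livers, and 1.76 ± 0.105 CPM in R135W and 1.59 ± 0.397 CPM in WT gastrocnemius. Like Ifi27 it had its highest level in R135W liver, and its muscle means lay close together, which restates how it was found. Nearest to Ifi27l2a were the Schlafen gene Slfn4 at 0.23, Phf11d at 0.24 and Slfn2 at 0.24. Slfn2 averaged 11.4 ± 0.959 CPM in R135W and 4.43 ± 0.133 CPM in WT livers, and 3.83 ± 1.31 CPM in R135W and 2.18 ± 0.546 CPM in WT gastrocnemius.

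Nearest to Ifi27l2b were Adam11 at 0.27, the choline kinase gene Chka at 0.32 and Marco, a scavenger receptor of macrophages, at 0.36. Marco averaged 25.4 ± 2.37 CPM in R135W livers and 5.77 ± 2.21 CPM in WT livers, and at most 0.0767 CPM in any muscle library. The other members, left out of those 15411 genes, were then ranked together with them. From Ifi27l2b, Ifi27 had rank 24 and Ifi27l2a rank 2128. From Ifi27, Ifi27l2b had rank 63 and Ifi27l2a rank 1365. The pseudocount decides much of this order for low genes. With 0.1 in place of 1, Emr1 was again first for Ifi27, Ly6c2 was first for Ifi27l2a and Serpina3g for Ifi27l2b. Near copies exist for Slfn4, Slfn2 and Phf11d, so their counts may be shared.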

How the data were processed

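The deposited files hold raw counts per gene, not normalised; per the file headers the authors counted read pairs over exons of the UCSC mm10 genes with featureCounts 1.5.2, primary alignments only, without strand, and for every gene a fragment overlapped. The submitters' processing notes name STAR 2.4.0 for alignment. All 12 libraries were used. Each tissue's 6 libraries were fitted with edgeR 4.0.16 in R 4.3.3 (TMM, filterByExpr, quasi-likelihood F test, Benjamini-Hochberg over all tested genes, threshold 0.05); tissues were compared in a fit of 12 libraries in 4 groups. SE is the log2 fold change over the square root of F. The tests were checked on simulated data. Figures were drawn with matplotlib 3.10.9.

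Libraries with the same number in their title share genotype and age and were taken as 1 animal; their deviations from group means correlated at -0.0066 to 0.0865, those of different animals at -0.0821 to 0.0774. The members and the 12 gene lists were chosen with earlier results of these data known. Of the transducer list, 1 gene is not reported here. Genes named were the members, Mars2, the 3 nearest profiles per member, 3 neighbours per side, the members of the ligand, receptor, transducer, inhibitor and partner lists with the smallest p, 3 other interferon-stimulated genes and the most abundant cell type markers; Ifnb1, Ifng, Ifnk and genes named with the other pseudocount were added after their values were seen. Alternatives were RLE factors, DESeq2 1.42.0, no filter, age, a fit of all libraries, the animal block, summed or subtracted counts of the overlapping pair, and leaving out each library.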

Additional observations from a re-analysis of the deposited data

How the results depend on the processing

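Of 156 values of the members under an alternative, 137 moved by less than the spread between replicates or kept their call. The exceptions concern the shared exon and the few muscle counts of Ifi27l2b. Ifi27 in gastrocnemius was 0.31 with both genes summed and -0.52 less all Ifi27l2a counts, and its difference between tissues was 1.57 and 2.46. Taking all Ifi27l2a counts goes beyond the overlap, which is 11.7% of the Ifi27l2a exon length. Ifi27l2a less 4.89%, 9.78% and 12.8% of the Ifi27 counts was 1.59, 1.21 and -0.76 in liver, 0.78, 0.87 and 0.93 in gastrocnemius, 0.80, 0.34 and -1.66 for the difference between tissues, and 0.48, -0.22 and -1.22 for WT liver against WT gastrocnemius. The difference between tissues of Ifi27l2b ran from 0.88 to 1.75 without 1 library.

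Counts over all genes depended on the setting. In liver 457 genes were called, 774 by DESeq2, 274 with age as a covariate, 1057 in the fit of all 12 libraries, and 84 to 285 without 1 library. In gastrocnemius 121 were called, 267 by DESeq2, 20 in the fit of all 12 libraries and 3 to 106 without 1 library. For the difference between tissues 20 were called, 177 by DESeq2 and 6 to 34 without 1 library. With the animal as a replicate block these were 16, and for WT liver against WT gastrocnemius 12498 against 12652 genes; the block changed no call of a member. The cause of these shifts was not tested. Leaving out a library leaves fewer samples. Of 2125 values of other named genes under an alternative, 58 lost and 23 gained a call, and 0 reversed. Depth limits Ifi27l2b in muscle and the interferon ligands.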
